A study of Mus musculus with 17 samples.

Results

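Nuclear RNA of the posterior brain was compared between 6 mice given an antisense oligonucleotide against Malat1 joined to an antibody against the transferrin receptor (anti-TfR:Malat1) and 4 mice given saline. These were all of the animals labelled with either treatment, 10 of the 17 animals of the study. They held 166218 of the 284074 nuclei. The other 7 animals were given the free oligonucleotide (4) or an oligonucleotide on another TfR-binding carrier (OTV:Malat1, 3). In the gene fits these other animals helped to set the spread, the batch terms, the filter on low counts and the normalization. Every mouse, the saline controls included, was a female of 2.3 months from the human TfR knock-in strain, with both alleles knocked in. Each received 4 weekly intravenous doses, the treatment being labelled as 24 days long, and brains were taken 72 hours after the last dose. The labelled dose of anti-TfR:Malat1 was 50 mg per kg, and how much of that was oligonucleotide is not stated. The saline labels carry the same entry of 50 mg per kg. The question was which cell classes lost Malat1, and whether any other RNA moved with it.

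The transferrin receptor carries iron-loaded transferrin into cells by endocytosis, and it is abundant on the endothelial cells that line brain capillaries. An antibody against it can therefore bind at the blood side of these cells, and part of what binds may be carried across them. An antisense oligonucleotide of the gapmer kind pairs with its RNA and leads RNase H1 to cut it, also inside the nucleus. Malat1, the target, is a very abundant long noncoding RNA that remains in nuclear speckles, so that a nucleus holds most of it.

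In GENCODE M21 (GRCm38, the same assembly as mm10, the build in the submitters' processing notes), Malat1 (ENSMUSG00000092341.3) is a lincRNA on chromosome 19, chr19:5795690-5802672, minus strand. Its longest transcript, Malat1-201, is 1 unspliced exon of 6983 bases and has no coding sequence or UTR. The bases 6596 to 6685 of that transcript (chr19:5795988-5796077, minus strand, 90 bases) are shown because they hold the elements that keep this RNA stable in the nucleus without a poly(A) tail. Capitals mark 3 runs rich in U (written as T: TTTTTCTTTT, TTTTGTTTT and TTTTGCTTTTT) and the run of 12 A at the end of the stretch, which is known to pair with U-rich motifs in a triple helix. The runs were marked by their bases alone, and which of the 3 take part was not examined. Another 298 bases of the transcript follow the stretch. The oligonucleotide is not shown, since the sources used here do not give its sequence.
Malat1 3′ stretch: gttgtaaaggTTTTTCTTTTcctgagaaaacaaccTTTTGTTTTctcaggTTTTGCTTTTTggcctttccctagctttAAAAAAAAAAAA

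The anti-TfR:Malat1 animals gave 13841 to 17990 nuclei and 57660409 to 79866411 UMIs each (unique molecular identifiers, which count RNA molecules). The saline animals gave 15142 to 17587 nuclei and 55833121 to 71138007 UMIs. Any pair of libraries in the series shared at most 110 cell barcodes, 0.623% of the smaller library. The deposited metadata give each nucleus 1 of 7 labels. Nuclei labelled neurons numbered 69871 in anti-TfR:Malat1 and 43108 in saline, and oligodendrocytes 25833 and 18288. The rarer labels were microglia (2840 and 2159), astrocytes (1725 and 1112), vascular cells (397 and 344) and perivascular macrophages (258 and 150). A label named glia held 76 and 57 nuclei and was led by Ttr and Tmem72, genes of choroid plexus and ependyma, so it was not fitted. The markers of neurons, oligodendrocytes, astrocytes, perivascular macrophages and vascular cells were each highest in the label of that name, for example Slc1a2 at 5152 CPM (UMIs of the gene per 1000000 UMIs of the label) in astrocytes and Mbp at 4347 CPM in oligodendrocytes. Those of microglia were highest in microglia except C1qa, at 182 CPM against 231 CPM in perivascular macrophages. The labels were not pure, however. The neuron label included 4134 nuclei of deposited cluster 13, which carried Pdgfra at 622 CPM and Vcan at 1249 CPM, genes of oligodendrocyte precursors. It also included 3199 nuclei of cluster 2, which carried Mbp at 3151 CPM, and most other nuclei of that cluster (16261) were labelled oligodendrocytes. The metadata name 4 batches, whose meaning was not given. Each batch held 1 saline animal, batches 1 and 2 held 1 anti-TfR:Malat1 animal each, and batches 3 and 4 held 2 each.

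Malat1 made up less of the RNA of astrocytes in anti-TfR:Malat1 than in saline animals, and to a like extent in oligodendrocytes. With genes of low count filtered out and all animals in the fit, it was the only RNA that passed the threshold in any label. UMIs were summed per animal and label, and edgeR's quasi-likelihood test was run with batch as a block, and a gene passed at a Benjamini-Hochberg adjusted p under 0.05 across the genes of that label. In astrocytes 1 of 8547 genes passed, 0.0117% of those tested, and it was Malat1, with a log2 change of -0.61 (SE 0.11, 95% interval -0.84 to -0.39, edgeR adjusted p 0.0360). In oligodendrocytes Malat1 again had the smallest p of all 14419 genes, with a log2 change of -0.58 (SE 0.10), but the adjusted p of 0.181 did not pass and 0% of the genes did. The share passing was also 0% among 20906 genes in neurons, 9104 in microglia, 3312 in vascular cells, 1418 in perivascular macrophages and 21375 over all nuclei. DESeq2 called Malat1 in astrocytes and in oligodendrocytes and no other gene in any label. At an unadjusted p under 0.05 edgeR gave 331 genes in astrocytes (3.87%), 354 in oligodendrocytes (2.46%), 421 in neurons (2.01%), 299 in microglia (3.28%), 94 in vascular cells (2.84%), 50 in perivascular macrophages (3.53%) and 408 over all nuclei (1.91%). If no gene differed, 5% would be expected, and every share lay under that. The astrocyte call was lost without the batch block (edgeR adjusted p 0.156) and with only the 10 animals in the fit (0.0536). Leaving out single animals moved the edgeR adjusted p between 0.0276 and 0.3997, and the call was lost in 7 of the 10 fits, those without saline replicate 1, 2 or 3 or anti-TfR:Malat1 replicate 2, 3, 4 or 5. Without anti-TfR:Malat1 replicate 1, 5 genes passed, Malat1 and the neuronal or precursor genes Dscam, Sgcz, Anks1b and Pcdh15, all lower.

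**Figure D1:**
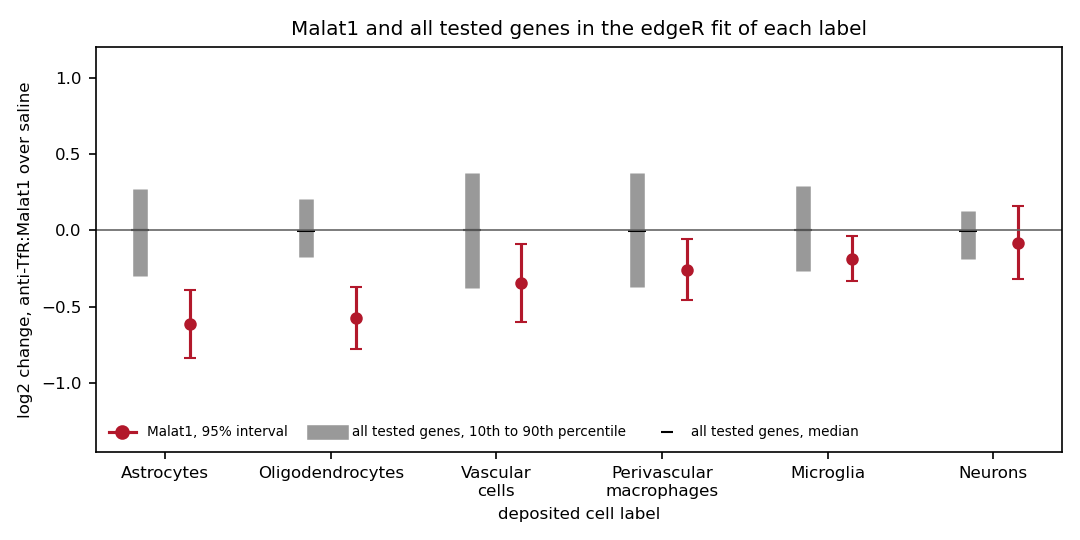
Log2 change of anti-TfR:Malat1 over saline in the edgeR fit of each deposited label. Red points are Malat1 with its 95% interval, grey bars span the 10th to the 90th percentile of all tested genes and black ticks are their median; in astrocytes and oligodendrocytes Malat1, at -0.61 and -0.58, lies below the grey bar, whose lower ends are -0.30 and -0.17.

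The measured levels of Malat1 were high in every label, and they varied widely between saline animals. In astrocytes Malat1 took 12.6%, 9.27%, 9.85% and 6.72% of all UMIs in saline replicates 1 to 4, and from 5.21% to 7.33% with a median of 6.17% in anti-TfR:Malat1. The means were 9.61% ± 2.41 (SD, n = 4) and 6.17% ± 0.78 (SD, n = 6). In oligodendrocytes the saline animals held 11.96%, 10.2%, 10.9% and 7.83%, and the anti-TfR:Malat1 animals from 5.91% to 8.75% with a median of 6.64%. The means were 10.2% ± 1.75 (SD, n = 4) and 6.97% ± 1.09 (SD, n = 6), a treated mean at 68.2% of saline. In each of these 2 labels 5 of 6 anti-TfR:Malat1 animals lay below every saline animal, and the remaining one lay only above saline replicate 4, which was the lowest saline animal in all 6 fitted labels. On log2(CPM + 1) the groups differed by -0.61 in astrocytes and by -0.55 in oligodendrocytes (exact two-sided permutation p 0.0190 in both, adjusted p 0.0571 over 6 labels). Without saline replicate 4 both passed, at -0.77 and -0.67 (adjusted exact permutation p 0.0357), and without anti-TfR:Malat1 replicate 3 as well, at -0.67 and -0.62 (0.0476). Saline replicate 4 was the only saline animal of batch 4, so leaving it out left the treated animals of that batch without a control.

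Neurons and microglia showed smaller differences, and their groups overlapped fully. Neurons held 7.37%, 6.37%, 7.54% and 4.31% in saline and from 4.36% to 7.11% with a median of 5.64% in anti-TfR:Malat1, so the treated mean was 90.8% of saline (exact permutation p 0.552, adjusted p 0.552). The fitted log2 change in neurons was -0.08 (SE 0.11, 95% interval -0.32 to 0.16). The fitted change in neurons became 0.054 without anti-TfR:Malat1 replicate 1 and 0.032 without saline replicate 1, so its direction rested on either animal of batch 1. Microglia, the resident immune cells, held 6.35%, 5.45%, 5.39% and 3.83% in saline and from 3.97% to 5.26% with a median of 4.46% in anti-TfR:Malat1. Their fitted log2 change was -0.19 (SE 0.07, edgeR p 0.0157 before adjustment). Perivascular macrophages, which sit along vessels outside the capillary wall, held 5.27% to 7.55% in saline and 4.45% to 6.69% in anti-TfR:Malat1, with a fitted log2 change of -0.26 (SE 0.10, edgeR p 0.0134 before adjustment). Vascular cells held 8.27% to 11.8% in saline and 6.77% to 10.3% in anti-TfR:Malat1, with a fitted log2 change of -0.35 (SE 0.12, edgeR p 0.0100 before adjustment). None of these 4 passed after adjustment. The exact permutation p was 0.229 in microglia, 0.124 in perivascular macrophages and 0.0571 in vascular cells (adjusted p 0.274, 0.186 and 0.114). In the permutation test without saline replicate 4, microglia (-0.34) and perivascular macrophages (-0.37) passed (adjusted exact permutation p 0.0357). That animal was the only saline one of batch 4. Without it the treated animals of batch 4 had no control of their batch, and the test ignored batch. Within batch 4, microglia stood above saline at a log2 difference of 0.13 and perivascular macrophages below it at -0.11. The values are shares of RNA, so a loss of Malat1 and a gain of all other RNA cannot be told apart.

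**Figure D2:**
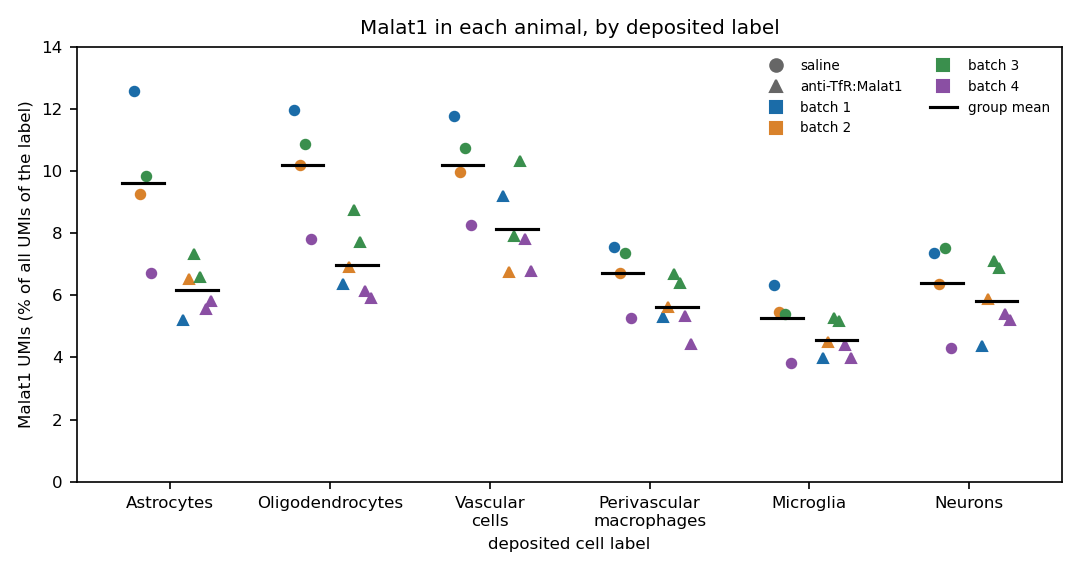
Malat1 UMIs as a percent of all UMIs of each deposited label, 1 point per animal (circles saline, triangles anti-TfR:Malat1, colour by batch, lines are group means). The groups are furthest apart in astrocytes (means 9.61% and 6.17%) and oligodendrocytes (10.2% and 6.97%) and overlap fully in neurons.

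Against the saline animal of the same batch, every anti-TfR:Malat1 animal was lower in astrocytes and in oligodendrocytes. In batches 1 to 4 the log2 difference in oligodendrocytes was -0.91, -0.56, -0.40 and -0.38, and in astrocytes it was -1.27, -0.51, -0.50 and -0.24. All 4 batch values were also below 0 in vascular cells, from -0.56 to -0.18, and in perivascular macrophages, from -0.51 to -0.11. In neurons the value was -0.76 in batch 1, -0.12 in batch 2, -0.11 in batch 3 and 0.30 in batch 4, so neurons were lower in 3 batches and higher in the last. Microglia changed sign in the same way, at -0.68, -0.27, -0.046 and 0.13 in batches 1 to 4. Anti-TfR:Malat1 replicate 1, alone in batch 1 with saline replicate 1, gave the lowest ratio in 5 of the 6 labels, at 41.4% of its saline animal in astrocytes and 59.2% in neurons. With labels moved only within batches, the smallest p that 36 regroupings allow is 0.0556, and astrocytes, oligodendrocytes and vascular cells reached it.

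**Figure D3:**
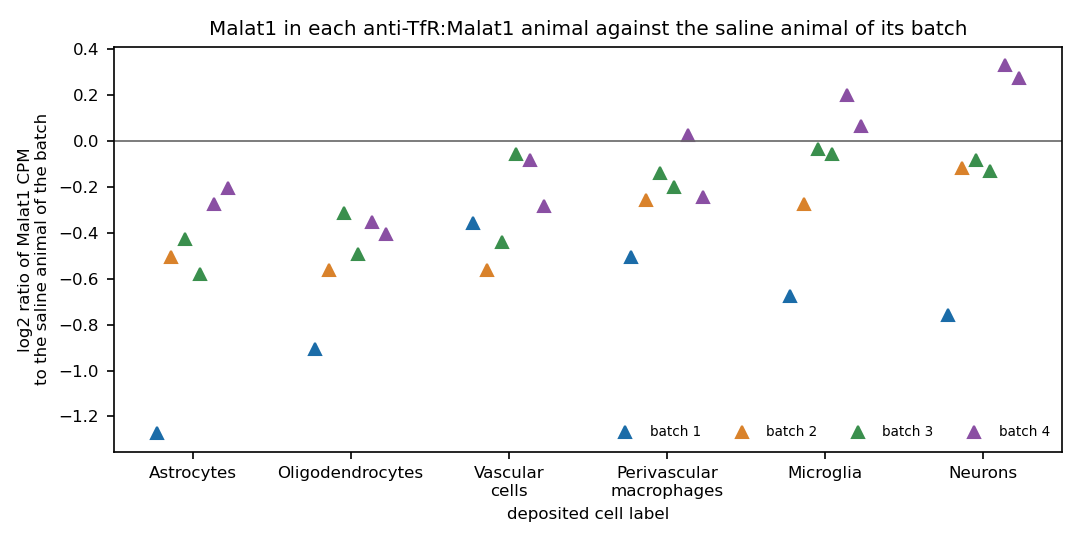
Log2 ratio of Malat1 CPM in each anti-TfR:Malat1 animal to the saline animal of its batch, by deposited label, colour by batch. All 6 animals lie below 0 in astrocytes and oligodendrocytes; in neurons the batch 4 animals lie above 0, at 0.33 and 0.27.

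Labels were also compared within animals, where a difference common to all nuclei of an animal drops out. Within animals, astrocytes exceeded neurons by a log2 of 0.58 ± 0.16 (SD, n = 4) without treatment and by 0.10 ± 0.11 (SD, n = 6) after anti-TfR:Malat1. The change in astrocytes was therefore larger than that in neurons by -0.49 (exact permutation p 0.0095, the smallest that 6 against 4 allow, adjusted p 0.0476 over 5 labels), and 6 of 6 treated animals lay under the whole saline range. Oligodendrocytes exceeded neurons by 0.69 ± 0.14 (SD, n = 4) without treatment and by 0.27 ± 0.15 (SD, n = 6) after anti-TfR:Malat1, a difference of -0.42 (exact permutation p 0.0190, adjusted p 0.0476) with 5 of 6 treated animals under the whole saline range. In batches 1 to 4 the values were -0.52, -0.39, -0.40 and -0.54 for astrocytes and -0.15, -0.44, -0.29 and -0.68 for oligodendrocytes. Within-batch permutation gave 0.0556 for both, the smallest possible, so neither passed there. Each call was also lost in 9 of the 10 repeats that left out 1 animal, all but the one without anti-TfR:Malat1 replicate 1 (adjusted exact permutation p 0.0397 to 0.119, with fewer animals and so a larger smallest p), while the differences stayed at -0.55 to -0.42 and -0.48 to -0.37. The same difference was -0.21 for vascular cells (adjusted exact permutation p 0.381), -0.13 for perivascular macrophages (0.381) and -0.07 for microglia (0.438). With 1 animal left out, these 3 ranged from -0.32 to -0.12, from -0.19 to -0.061 and from -0.14 to -0.032.

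The deposited clusters within the oligodendrocyte and neuron labels were compared between the groups on log2(CPM + 1). Neurons of the same animal were not subtracted here, so differences common to an animal remain. Oligodendrocyte-labelled nuclei of clusters 0, 2 and 15, with Mbp at 4373, 3800.0 and 5266 CPM, differed from saline by -0.57, -0.64 and -0.47, and 30.2% of those in cluster 15 were doublets by the authors' calls. Neuron-labelled nuclei of cluster 2, with Mbp at 3151 CPM and a median of 831 UMIs, went from 11.004% to 6.91% of UMIs, a difference of -0.66. The oligodendrocyte-labelled nuclei of cluster 17, of which 42.8% were called doublets, carried myelin genes too, with Mbp at 4267 CPM and St18 at 3115 CPM, beside Vcan at 571 CPM, and differed by -0.04. Nuclei of the precursor cluster 13 under the neuron label went from 5.34% to 5.23%, a difference of -0.005. Over the 17 clusters under the neuron label, all means lay below saline, with a median difference of -0.15 and neuron-labelled cluster 2 the lowest. None of the 25 label and cluster pairs passed after adjustment (smallest exact permutation p 0.0190, adjusted p 0.119).

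The low end of the distribution over nuclei stood proportionally further below saline than the high end in oligodendrocytes and astrocytes, and not in neurons. To compare nuclei of unequal depth, each nucleus was thinned to 500 UMIs, and the 10th, 50th and 90th percentile of Malat1 per nucleus was taken in each animal. In oligodendrocytes the 10th percentile was 41, 34, 38 and 25 Malat1 UMIs per 500 in saline and 15, 16, 22, 16, 13 and 11 in anti-TfR:Malat1, so the groups did not overlap. The mean stood at 44.9% of saline at the 10th percentile, 68.4% at the 50th and 73.6% at the 90th. Astrocytes stood at 48.6%, 63.5% and 71.2% of saline at the same percentiles. Vascular cells stood at 53.3%, 85.8% and 85.7%. Perivascular macrophages stood at 78.0%, 85.0% and 88.4%, and microglia at 87.6%, 88.9% and 91.6%, the same order with smaller steps. Neurons stood at 89.6%, 89.6% and 87.5%. In UMIs, the astrocyte difference was -17.2 at the 10th percentile and -19.1 at the 90th. No percentile passed after adjustment over 18 tests (smallest exact permutation p 0.0095, adjusted p 0.103).

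The distance between low and high nuclei within an animal was also computed, as a description with no test, since the percentiles above had prompted it. The log2 ratio of the 10th to the 90th percentile was -1.04 ± 0.08 (SD, n = 4) in saline oligodendrocytes and -1.77 ± 0.20 (SD, n = 6) with anti-TfR:Malat1. The difference was -0.73, and from -0.80 to -0.63 within the 4 batches. In astrocytes the ratio was -1.01 ± 0.13 (SD, n = 4) and -1.55 ± 0.18 (SD, n = 6), a difference of -0.54. In neurons it was -1.58 ± 0.08 (SD, n = 4) and -1.53 ± 0.05 (SD, n = 6), a difference of 0.04. In vascular cells it differed by -0.86 and spread widely between treated animals, from -2.80 to -1.12. RNA free in the droplets adds UMIs of Malat1 to every nucleus, and its part in these percentiles was not tested. The summed neuronal markers in the oligodendrocyte label, which such RNA can carry, ranged from 646 to 1036 CPM in saline and from 865 to 1225 CPM in anti-TfR:Malat1.

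**Figure D4:**
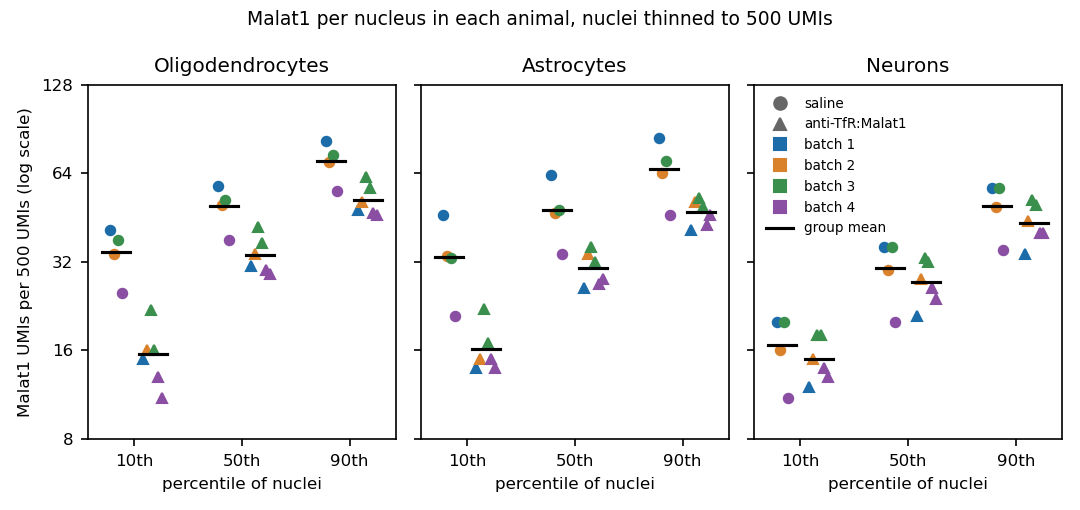
The 10th, 50th and 90th percentile of Malat1 UMIs per nucleus in each animal after thinning to 500 UMIs (log scale; circles saline, triangles anti-TfR:Malat1, colour by batch, lines are group means). In oligodendrocytes the 10th percentile is 25 to 41 in saline and 11 to 22 in anti-TfR:Malat1.

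Within the vascular label Malat1 was lowest in the endothelial nuclei of the treated animals. Vascular nuclei were assigned to the endothelial, mural or fibroblast-like marker list that held most of their UMIs, and 87 of 741 had no leading list. Endothelial nuclei, the lining of the vessels, held 6.77%, 8.08%, 7.78% and 5.94% of UMIs as Malat1 in saline replicates 1 to 4. In anti-TfR:Malat1 replicates 1, 2, 3, 5 and 6 they held 4.35%, 2.83%, 4.65%, 2.46% and 2.96%, each below every saline animal. Replicate 4 had only 3 such nuclei, under the minimum of 5, and was left out. The means were 7.14% ± 0.98 (SD, n = 4; 61 nuclei) and 3.45% ± 0.98 (SD, n = 5; 57 nuclei with those of replicate 4), or 48.3% of saline. The log2 difference was -1.08 (exact permutation p 0.0159, the smallest possible, adjusted p 0.0476 over 3 lists), and it was -0.64, -1.52, -0.74 and -1.14 in batches 1 to 4. The call was lost within batches (exact permutation p 0.0833, the smallest possible) and in 9 of 9 repeats that left out 1 animal (adjusted exact permutation p 0.0714 to 0.107), where fewer animals allow only larger p. The difference stayed at -1.20 to -0.97 in those repeats.

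Mural nuclei were those led by a list of pericyte and smooth muscle genes. They held 12.6% in saline and 11.2% in anti-TfR:Malat1, a log2 difference of -0.17 (exact permutation p 0.171). With 1 animal left out, the mural difference ranged from -0.26 to -0.096. Fibroblast-like nuclei held 10.4% and 8.98%, a log2 difference of -0.21 (exact permutation p 0.0571). Set against other nuclei of the same animals, as a description with no test since the values above had prompted it, the endothelial change differed by -0.89 from the mural one, -0.83 from the fibroblast-like one, -0.91 from the neuronal one, -0.50 from the oligodendrocyte one and -0.45 from the astrocyte one. In batch 1 the values against neurons, oligodendrocytes and astrocytes had the other sign, at 0.12, 0.27 and 0.64. The endothelial nuclei also carried summed mural markers at 2100 CPM and blood markers at 1853 CPM, against 16473 CPM of endothelial markers, and the part of these in the result was not tested.

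**Figure D5:**
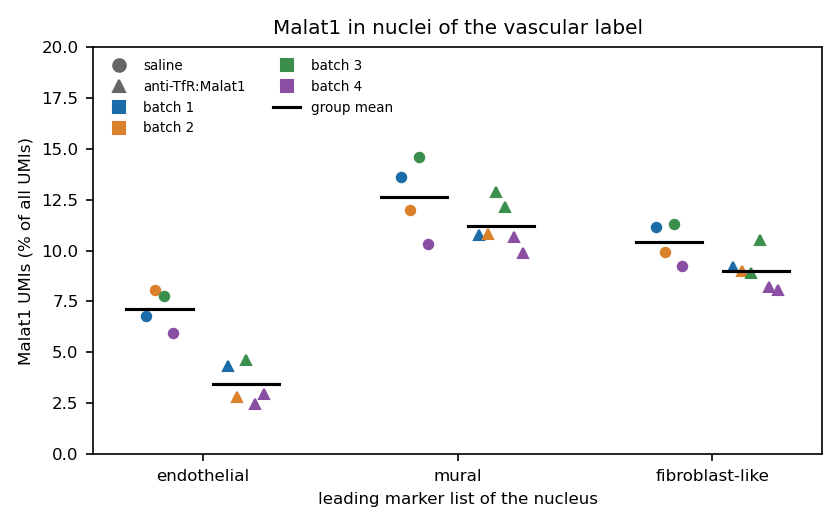
Malat1 UMIs as a percent of all UMIs in vascular nuclei led by each marker list, 1 point per animal with 5 or more such nuclei (circles saline, triangles anti-TfR:Malat1, colour by batch, lines are group means). The endothelial points do not overlap (5.94% to 8.08% in saline, 2.46% to 4.65% in anti-TfR:Malat1), and the mural points do.

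Tfrc encodes the transferrin receptor. In endothelial nuclei it was read from 11 UMIs in saline (111 CPM, 95% exact Poisson interval 55.6 to 199) and 29 in anti-TfR:Malat1 (260 CPM, 174 to 373). Per animal the median was 103 CPM in saline and 205 CPM in anti-TfR:Malat1, and 4 of 5 treated animals lay above every saline animal (exact permutation p 0.0794, adjusted p 0.159 over 6 tests). The intervals cover counting error only. How reads of the knocked-in human sequence were counted is not stated. Mural and fibroblast-like nuclei held 1 to 3 UMIs of Tfrc per group. In neurons Tfrc ranged from 20.5 to 22.8 CPM with a median of 22.7 in anti-TfR:Malat1 and was 21.8 to 27.4 CPM in saline, and the fit gave -0.17 on the log2 scale (SE 0.07; edgeR p 0.0298, and 1.00 after adjustment). Astrocytes and oligodendrocytes showed log2 changes of 0.30 (SE 0.34) and -0.17 (SE 0.16) in Tfrc, with edgeR p of 0.384 and 0.312 before adjustment. With 1 animal left out, these values of Tfrc ranged from 0.01 (without anti-TfR:Malat1 replicate 1) to 0.53 (without saline replicate 3) and from -0.30 (without saline replicate 4) to -0.054 (without saline replicate 1).

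Neat1, the long noncoding RNA that builds paraspeckles and lies next to Malat1 on chromosome 19, was also low in vascular nuclei. Over the vascular label it held 367 to 637 CPM in saline and 84.7 to 409 CPM with a median of 293 in anti-TfR:Malat1, and 4 of 6 treated animals lay below every saline animal. The log2 change was -0.90 (SE 0.32, edgeR p 0.0101 before adjustment, adjusted p 1.00), which did not pass. In endothelial nuclei the 5 treated animals, at 37.6 to 202 CPM, lay below the 4 saline animals, at 260 to 489 CPM (exact permutation p 0.0159, adjusted p 0.0952). That rested on 12 and 38 UMIs. These nuclei are part of the vascular label, so their values are not separate from the result over that label. Fibroblast-like nuclei, which held most of the Neat1 UMIs of the label, had 173 UMIs in saline (771 CPM) and 100 in anti-TfR:Malat1 (388 CPM), a log2 difference of -0.94 (exact permutation p 0.0571, adjusted p 0.159). Mural nuclei differed by -0.30 (exact permutation p 0.543). In oligodendrocytes, where Neat1 was most abundant, it held 818 to 1096 CPM in saline and 758 to 1096 CPM in anti-TfR:Malat1, a log2 change of -0.07 (SE 0.10). Of the 18 tested protein-coding and other neighbours of Malat1 on chromosome 19, 0 passed over all nuclei. Their median log2 change was -0.06, against -0.003 over all genes, with values from -0.19 to 0.07.

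Beyond Malat1, the genes of smallest p in each label did not pass and are given as values. In astrocytes Asphd2 held 2.45 to 10.7 CPM in saline and 15.3 to 30.1 CPM in anti-TfR:Malat1, or 1.49 on the log2 scale (SE 0.39; adjusted p 1.00 in edgeR) from 100 UMIs in all. Ctnnb1, the beta-catenin of Wnt signalling, stood at a log2 change of 0.75 (SE 0.21) and Ank3, an ankyrin of the axon initial segment, at -0.60 (SE 0.15). In microglia Rnf5, a ubiquitin ligase of the endoplasmic reticulum, held 14.1 to 23.7 CPM in saline and 3.98 to 7.14 CPM in anti-TfR:Malat1, on 58 UMIs (log2 change -1.69, SE 0.39, edgeR adjusted p 0.760). Klf6, a transcription factor, stood at -0.93 (SE 0.22) and Fermt3, which activates integrins in blood cells, at -0.39 (SE 0.10). Microglial Pabpn1, a nuclear poly(A)-binding protein, held 80.2 to 110 CPM in saline and 120 to 147 CPM in anti-TfR:Malat1, a log2 change of 0.48 (SE 0.14).

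Pabpn1 also stood above 0 in neurons and oligodendrocytes, at 0.22 (SE 0.08) and 0.23 (SE 0.09), where the groups overlapped. Without saline replicate 4 these values of Pabpn1 were 0.11 and 0.12. In oligodendrocytes Cers2, a ceramide synthase needed for myelin lipids, held 62.4 to 88.0 CPM in saline and 50.4 to 76.4 CPM with a median of 62.9 in anti-TfR:Malat1, or -0.31 on the log2 scale (SE 0.07; adjusted p 1.00 in edgeR). Gnmt, a glycine methyltransferase, held 1.80 to 2.21 CPM and 0.616 to 1.40 CPM, on 94 UMIs. Zfp618, Cacng8 and Plscr4 stood at 1.02, 0.64 and 1.07 on the log2 scale. In neurons the lowest p belonged to Hnf1aos1, an antisense transcript, at -0.94 (SE 0.21), followed by Srgn, the proteoglycan serglycin of blood and immune cells, at -1.14 (SE 0.28) on 116 UMIs. In vascular cells Lhfpl3, Tnr and Dscam, which precursors and neurons express, stood at 1.99, 2.11 and 2.16, and Mgp, a matrix protein of vessel walls, at -1.10 (SE 0.34). Without the filter on low counts, Tnr and Dscam did pass in vascular cells. The summed precursor markers in that label ranged from 282 to 887 CPM in anti-TfR:Malat1 and from 315 to 386 CPM in saline, and their part in these values was not tested. In perivascular macrophages Nrros, which holds latent TGF-beta at the surface of macrophages, held 621 to 744 CPM in saline and 419 to 561 CPM in anti-TfR:Malat1, a log2 change of -0.56 (SE 0.20).

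With genes of low count filtered out, the gene lists showed no member past the edgeR threshold in any label. Without that filter Hba-a1 and Hba-a2, of the haemoglobin list, passed in vascular cells. RNase H and nuclear RNA decay genes, which act on oligonucleotide targets, had a median log2 change of 0.03 in astrocytes (10 tested), -0.03 in oligodendrocytes (16) and 0.04 in microglia (16). Paraspeckle and nuclear speckle proteins, partners of Malat1 and Neat1, had 22 tested members with medians of -0.04 in astrocytes, -0.06 in oligodendrocytes and -0.03 in neurons. Srsf2, a splicing factor of nuclear speckles, stood at -0.21 (SE 0.07) in oligodendrocytes and -0.17 (SE 0.05) in neurons, with overlapping groups, and at -0.14 in oligodendrocytes without anti-TfR:Malat1 replicate 1. Transferrin receptor and iron handling genes had medians of 0.14 in astrocytes (14 tested), -0.08 in oligodendrocytes (16) and 0.03 in neurons (21). In vascular cells their median was -0.39 (7 tested, 5 below 0, against 49.8% of all genes). Immediate early genes had a median of -0.25 in neurons (20 tested, 19 below 0, against 51.6% of all genes). In oligodendrocytes it was 0.09 (19 tested, 4 below 0, against 50.9%). Cholesterol synthesis genes had a median of -0.09 in neurons (18 tested, 16 below 0) and 0.001 in oligodendrocytes (18 tested, 9 below 0).

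Lists of immune genes likewise had no member that passed. Interferon response genes had a median of -0.14 in neurons (21 tested, 18 below 0), -0.25 in microglia (11 tested, 9 below 0) and -0.06 in oligodendrocytes (13 tested, 9 below 0). Of all genes tested, 51.6% were below 0 in neurons, 49.9% in microglia, 50.9% in oligodendrocytes and 49.8% in vascular cells. Usp18, which restrains interferon signalling, stood at -0.79 (SE 0.29, edgeR adjusted p 1.00) over all nuclei on 221 UMIs, and at -0.47 without saline replicate 4. In microglia, homeostatic microglia genes had a median of -0.05 (12 tested, 10 below 0) and activated microglia genes one of -0.02 (10 tested, 7 below 0). Antibody-binding genes, a list of Fc receptors, Trim21 and the C1q subunits of complement, had a median of -0.03 in microglia (8 tested) and -0.06 in perivascular macrophages (5 tested). Haemoglobin genes had medians of -1.05 in neurons (5 tested), -1.03 in oligodendrocytes (3) and -1.82 in vascular cells (3). All members were below 0, and none passed with the filter on low counts. These are RNAs of blood cells, and Hba-a1 in neurons held 0 to 1.02 CPM in saline and 0.0480 to 0.592 CPM in anti-TfR:Malat1. The median over all genes tested lay between -0.008 and 0.004 in every label.

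In the astrocyte label, myelin genes stood below 0 together. Of 15 tested members 13 were below 0 and 4 had an unadjusted edgeR p under 0.05, all lower, but 0 passed, and the median was -0.44. Over all 8547 genes of the label 49.2% were below 0, 1.95% had an unadjusted edgeR p under 0.05 and were lower, and the median was 0.004. Mog, a surface protein of myelin, held 78.8 to 102 CPM in saline and 42.3 to 79.5 CPM with a median of 56.4 in anti-TfR:Malat1 (log2 change -0.68, SE 0.20, edgeR adjusted p 1.00). Mbp, myelin basic protein, held 196 to 346 CPM and 162 to 260 CPM (log2 change -0.44, SE 0.14). Without anti-TfR:Malat1 replicate 1 the log2 changes were -0.42 for Mog and -0.23 for Mbp. Aspa, an enzyme of oligodendrocytes that breaks down N-acetylaspartate, stood at -0.62 (SE 0.21) and turned to 0.17 with the authors' doublets left out, where Mbp stood at -0.39. The summed astrocyte markers of the same label were 9087 to 9767 CPM in saline and 10221 to 11547 CPM in anti-TfR:Malat1, with no overlap (exact permutation p 0.0095 before any adjustment, the smallest possible). Every marker list was tested in every fitted label without adjustment, and this p was the smallest. The summed oligodendrocyte markers of the astrocyte label overlapped, at 718 to 1329 CPM in saline and 608 to 1156 CPM in anti-TfR:Malat1 (exact permutation p 0.219). The astrocyte marker sums moved with the Malat1 result of the label, and their part in it was not tested. With the authors' doublets left out, the fitted Malat1 change in astrocytes was -0.63 (edgeR adjusted p 0.0154). In the oligodendrocyte label myelin genes had a median of -0.04 (16 tested, 12 below 0, against 50.9% of all genes), and the summed oligodendrocyte markers of the groups overlapped (14387 to 15970 CPM in saline, 14162 to 16025 CPM in anti-TfR:Malat1).

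The share of nuclei under each label did not pass a test between the groups. Neurons made up 65.9% ± 6.49 (SD, n = 4) of saline nuclei and 68.9% ± 5.49 (SD, n = 6) of anti-TfR:Malat1 nuclei, and oligodendrocytes 28.2% ± 5.27 (SD, n = 4) and 25.8% ± 4.07 (SD, n = 6). Vascular cells made up 0.535% ± 0.177 (SD, n = 4) and 0.405% ± 0.181 (SD, n = 6), with a difference of -0.160 to -0.056 percentage points in the 4 batches (exact permutation within batches p 0.0556, the smallest possible). The smallest exact permutation p over the 7 labels was 0.295 (adjusted p 0.6).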

How the data were processed

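Droplet single-nucleus RNA was deposited as raw UMI counts of 26131 genes in 284074 nuclei, with no normalization. The authors' metadata give each nucleus its animal, batch, cluster, cell-class label, the score of that label (a fraction from 0 to 1) and a doublet call, the last 4 being read here as categories or scores without further change. Per the submitters' processing notes, Cell Ranger 6.0.1, Seurat 4 and mm10 were used. The nuclei hold 500 or more UMIs and 298 to 4500 genes. The 47758 nuclei called doublets by the authors (16.8%) were left in. Another 9 metadata columns were not used.

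Counts were summed per animal and label, requiring 20 nuclei per animal. edgeR 4.0.16 (R 4.3.3; filterByExpr, TMM, quasi-likelihood test) was fitted to all 17 animals with group and batch, with Benjamini-Hochberg adjustment within each label. DESeq2 1.42.0 was an alternative. The fits were tested on simulated data. Exact two-sided permutation tests of one value used all 210 regroupings of 6 and 4 animals, with the smaller tail doubled, and 36 within batches (Python 3.11.15, SciPy 1.17.1). Log2 differences of Malat1 are on log2(CPM + 1), those of Tfrc and Neat1 in vascular nuclei on log2(CPM + 10). The split by vascular marker list was planned for Malat1 only, and the tests of Tfrc and Neat1 were added. A vascular nucleus needed 2 UMIs of its leading list, and an animal 5 such nuclei. Nothing in the labels says more of how replicates were raised than that they are separate animals.

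Genes named are Malat1, Neat1 and Tfrc, then in each label up to 8 each way that passed, or the 3 of smallest p each way where fewer passed (up to 5 each way over all nuclei), and at most 4 members of a list by smallest p. Genes that passed only with 1 animal left out, and cluster markers, were chosen after their values were seen. The members and lists were chosen with earlier results of these data known.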

Additional observations from a re-analysis of the deposited data

Results flagged for a closer look

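In 15 of 276 groups of 4 to 6 animals (5.43%) 1 animal stood apart by Dixon's test at 95%, and chance gives about 1 in 20. The glia label made up 0.318% of the nuclei of anti-TfR:Malat1 replicate 6, against a group median of 0.0268%. The 10th percentile of Malat1 per 500 UMIs was 22.2 in astrocytes of anti-TfR:Malat1 replicate 3 and 24 in vascular cells of saline replicate 4. Over all nuclei Cyp2t4 stood at 0.541 CPM in anti-TfR:Malat1 replicate 5 and Selplg at 15.7 CPM in saline replicate 2. In astrocytes Meg3 stood at 465 CPM in anti-TfR:Malat1 replicate 5 and Heph at 49.0 CPM in saline replicate 4. Lrp1 in astrocytes stood at 257 CPM in anti-TfR:Malat1 replicate 1 and 210.1 CPM in saline replicate 2. In neurons Gm13791 stood at 5.12 CPM in anti-TfR:Malat1 replicate 1 and 4.26 CPM in saline replicate 1, Tfrc at 21.8 CPM in saline replicate 3 and Hba-a1 at 0.592 CPM in anti-TfR:Malat1 replicate 6. Tfrc stood at 14.9 CPM in oligodendrocytes of saline replicate 2, and Tnr at 41.4 CPM in vascular cells of saline replicate 3.

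The Malat1 change was lower than that of neurons in the same animals, by a log2 of -0.49 in astrocytes and -0.42 in oligodendrocytes (exact permutation, adjusted p 0.0476; within batches p 0.0556, which does not pass).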

How the results depend on the processing

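Animals number 6 and 4, saline has 1 animal per batch, and endothelial nuclei number 3 to 20 per animal, which limits what could be detected. The deviations of same-numbered animals correlated at 0.369, 0.103, 0.472 and -0.362 over 15057 genes. Animals numbered 1 to 3 also shared a batch with their namesake, so number and batch cannot be told apart for them. Only number 4 was split between batches. The main fits did not pair animals by number. With the sample number as a replicate block in place of batch, Malat1 in astrocytes was at -0.57 (edgeR adjusted p 0.252) with 0 genes passing, and Srsf2 in neurons turned to 0.012. Without a batch block it was -0.67 (0.156) with 0 genes, and with only the 10 animals -0.62 (0.0536) with 0 genes, while Malat1 in oligodendrocytes then passed at -0.59 (0.0111; 1 gene). DESeq2 also called it there, at -0.57 (adjusted p 7.22e-04; 1 gene). With no filter on low counts edgeR called 2 genes in microglia, 1 in oligodendrocytes, 1 in perivascular macrophages and 6 in vascular cells, Malat1 among them at -0.18, -0.57, -0.25 and -0.39. The others were Gm47283 in microglia and Adarb2, Hba-a1, Hba-a2, Tnr and Dscam in vascular cells. The cause was not tested. With 50 or more nuclei per animal, permutation passed at -0.61 in astrocytes and -0.55 in oligodendrocytes, over fewer labels. Thinned to 1000 UMIs, the 10th percentile passed at -17.4 in astrocytes and -19.1 in oligodendrocytes, and the 50th at -18.1 in astrocytes; the cause was not tested. Within batches, where no test can pass, the change against neurons was -0.46 in astrocytes and -0.39 in oligodendrocytes, and endothelial Malat1 -1.01. The 10th to 90th percentile ratio, which has no test, moved to 0.096 in neurons with doublets left out and to -1.28 in vascular cells thinned to 1000 UMIs; the cause was not tested. Aspa in astrocytes turned to 0.17 with doublets left out.

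Leaving out each animal in turn, the fitted Malat1 change ranged from -0.72 to -0.47 in astrocytes (0 to 5 genes passing) and from -0.18 to 0.054 in neurons. The log2 CPM difference ranged from -0.77 to -0.47 in astrocytes, -0.67 to -0.47 in oligodendrocytes, -0.34 to -0.093 in microglia and -0.37 to -0.19 in perivascular macrophages, all 4 passing without saline replicate 4, the only saline animal of batch 4. Against neurons it ranged from -0.55 to -0.42 in astrocytes and -0.48 to -0.37 in oligodendrocytes, each call lost in 9 of 10 repeats. Endothelial Malat1 ranged from -1.20 to -0.97 and fibroblast-like from -0.27 to -0.17, the endothelial call lost in 9 of 9 and the fibroblast-like one gained without anti-TfR:Malat1 replicate 4. Fewer animals allow only larger p in these repeats. The 10th to 90th percentile ratio ranged from -1.06 to -0.73 in vascular cells. The difference in share of nuclei ranged from -0.28 to 0.49 for astrocytes and -0.061 to 0.013 for glia. Neat1 changed sign, ranging from -0.064 to 0.30 in astrocytes, -0.17 to 0.042 in oligodendrocytes and -0.53 to 0.17 in perivascular macrophages. Of the other settings, 288 values of the comparisons kept their direction and side of the threshold (or, untested, moved less than 1 SD), 17 gained the call, 9 lost it and 2 moved. With 1 animal left out, 582 kept them, 41 lost the call, 8 gained it, 4 moved and 9 changed direction. Both tallies include the number of genes passing in each label. That number has no direction, and was taken as kept if equal or close, gained if higher and lost if lower. The other settings include permutation within batches, where no test can pass.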
